A study of Homo sapiens with 15 samples.

Results

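The genes of mitochondrial and peroxisomal fatty acid oxidation were studied in LNCaP cells given androgen with or without an inhibitor of the androgen receptor. The set was a list of 31 gene symbols chosen for their function, covering the carnitine shuttle, the acyl-CoA dehydrogenases, the later steps of the oxidation spiral, the enzymes for unsaturated chains, electron transfer, the peroxisomal enzymes and 2 nuclear receptors. All 31 had a row among the 17272 genes of the expression table, and all 31 passed the filter on low values that left 17046 genes for testing. LNCaP cells are an established line from a human prostate cancer that responds to androgen. Cells were kept for 2 days in medium with charcoal-stripped serum, which holds little steroid hormone. They then received 1 nM R1881, a synthetic androgen, with the solvent DMSO (10 libraries, called R1881 here) or 1 nM R1881 with 2 µM enzalutamide, a drug that blocks the androgen receptor (5 libraries). Both groups were harvested at 22 h, so every library came from androgen-treated cells, and no library of untreated cells was analysed here. The model is limited to 1 cell line, without the other cells of a tumor.

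Fatty acids are burned by a repeated cycle of 4 reactions in which an acyl-CoA is oxidized, hydrated, oxidized again and cleaved to release acetyl-CoA. Long chains enter mitochondria bound to carnitine, and the electrons of the first oxidation pass through electron transfer flavoprotein to the respiratory chain. Peroxisomes run a parallel cycle for very long and branched chains, whose first step makes hydrogen peroxide, and they require the racemase AMACR, a histological marker of prostate cancer, to turn branched substrates into the form that can be oxidized. PPARA and PPARD are lipid-activated nuclear receptors that switch on many of these genes in liver and muscle.

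The values are normalized read counts that the methods call CPM, although their sum per library differed from 1000000, and a fold change is a difference in mean log2(CPM + 0.5), a scale that understates the change of genes with low values. A gene is called changed at an adjusted p under 0.05 over all genes tested. Recovered reads ranged from 15830745 to 24316740 per R1881 library and from 21188661 to 25416052 per enzalutamide library. KLK3, which encodes prostate-specific antigen and checks that the drug acted, was lower in every enzalutamide library (1588 ± 209 CPM, SD, n = 10, against 134 ± 7.66, n = 5), as were all 6 androgen-induced check genes by the test. All 8 luminal epithelial markers had a row, and their summed CPM was 6254 to 6723 in the R1881 libraries and 4345 to 4518 with enzalutamide. Of 12 markers of basal, stromal, immune and endothelial cells, 5 had a row, and their sum was 31.2 to 38.3 CPM with R1881 and 56.3 to 63.6 with enzalutamide, VIM being the largest term. Of these 5, 4 were higher and KRT14 was lower. KRT14 was at 0 in at least 1 enzalutamide library. The part of these markers in the results below was not tested. In bulk RNA, fewer cells that express a gene and less of its RNA per cell cannot be told apart.

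Of the 31 genes, 15 were downregulated and 11 were upregulated by enzalutamide, and 5 did not pass the test. The called share was 83.9%, against 62.5% of all genes tested, and by direction 48.4% were lower and 35.5% higher, against 32.7% and 29.8% of all genes. With library totals set to 1000000 instead, 12 members were lower and 13 higher, and the share of higher genes among all genes called went from 47.7% to 60.7%. The change was at least 1.5-fold for 8 of the downregulated genes, against a background of 9.55%, and for 1 of the upregulated genes, against 9.06%. The libraries of both treatments did not overlap for 11 lower genes, where 20.1% of all genes behaved so, and for 8 higher genes, where 17.1% did. The median log2 fold change was -0.07 for the 31 genes and -0.01 for all genes, while the median size of the change was 0.36 and 0.24. The set therefore did not move one way: the largest decreases fell on the valine enzyme ACAD8, the enoyl-CoA isomerase ECI2, the racemase AMACR and the carnitine carrier SLC25A20, and the largest increase on the peroxisomal bifunctional enzyme EHHADH.

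**Figure D1:**
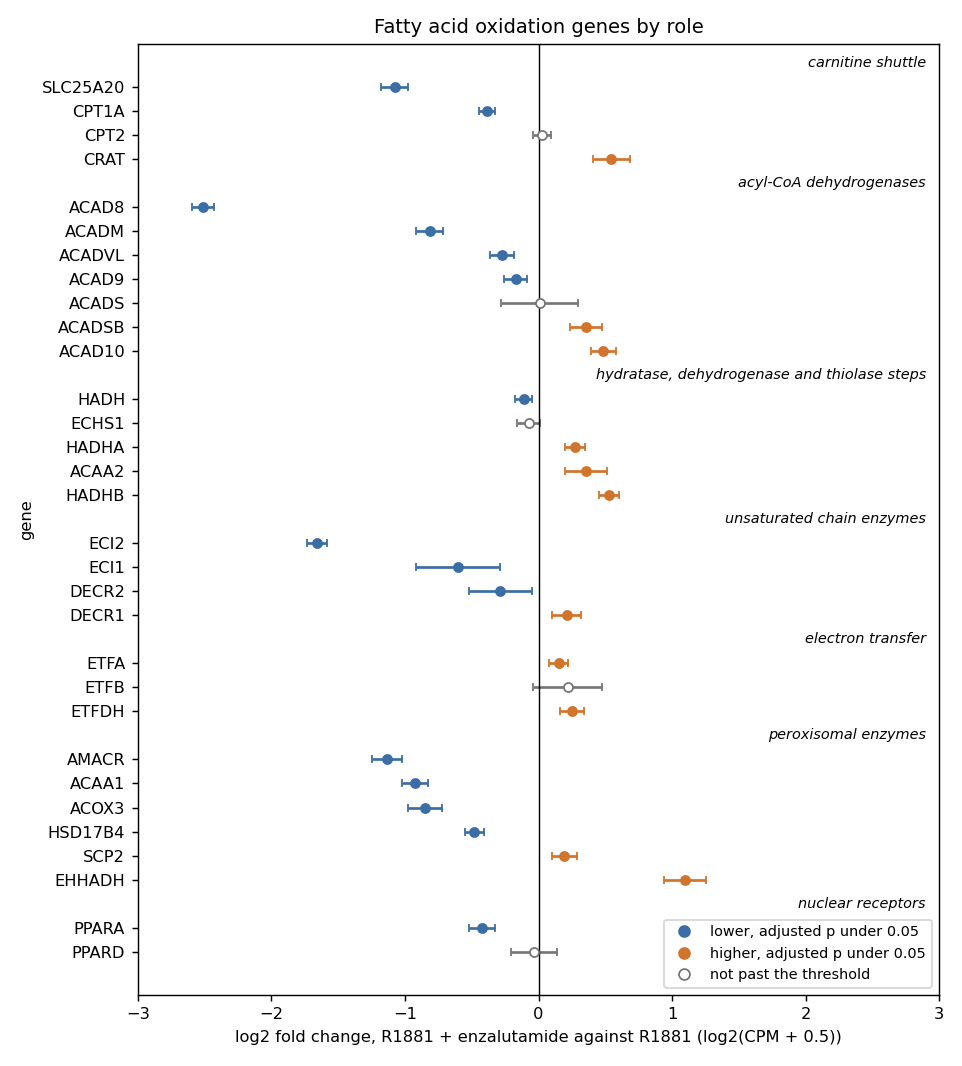
Log2 fold change of the 31 genes, R1881 + enzalutamide (5 libraries) against R1881 (10 libraries), by role; points are limma estimates on log2(CPM + 0.5) and bars are 95% confidence intervals. The estimates run from -2.52 for ACAD8 to 1.10 for EHHADH, and 5 genes shown as open points did not pass the threshold.

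Promoter sequence is shown for the genes with the largest decreases and for the gene pair that encodes a single enzyme, so that their start regions can be seen beside the values. RefSeq windows from 250 bases before to 50 after the start site (GRCh38.p14) were found for 25 of the 31 genes. HADHA and HADHB, the subunits of the mitochondrial trifunctional protein, lie head to head on chromosome 2 with RefSeq start sites 307 bases apart, so their windows share 194 bases at chr2:26244689-26244882. The stretches for ACAD8 (chr11:134253318-134253567, plus strand) and ECI2 (chr6:4135576-4135825, minus strand) are the 250 bases before the start site. Capitals mark GC boxes (GGGCGG on either strand), and the shared stretch is written on the strand of HADHA.
HADHA and HADHB shared stretch: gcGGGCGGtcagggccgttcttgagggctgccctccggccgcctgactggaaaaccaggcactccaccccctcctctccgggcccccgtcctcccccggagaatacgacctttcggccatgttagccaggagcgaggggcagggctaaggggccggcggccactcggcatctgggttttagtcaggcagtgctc
ACAD8: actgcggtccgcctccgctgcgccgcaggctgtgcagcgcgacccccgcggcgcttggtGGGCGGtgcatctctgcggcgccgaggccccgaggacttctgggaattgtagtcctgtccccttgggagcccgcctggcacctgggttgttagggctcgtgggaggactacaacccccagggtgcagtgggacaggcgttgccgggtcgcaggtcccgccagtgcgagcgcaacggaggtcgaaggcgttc
ECI2: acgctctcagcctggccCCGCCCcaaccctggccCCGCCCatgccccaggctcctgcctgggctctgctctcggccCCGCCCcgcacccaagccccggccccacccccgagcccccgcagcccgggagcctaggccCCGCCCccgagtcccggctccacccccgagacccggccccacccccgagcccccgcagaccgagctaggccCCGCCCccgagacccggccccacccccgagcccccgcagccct
The shared stretch and the ACAD8 stretch held 1 GC box each and the ECI2 stretch held 5. Over the whole windows, searched on both strands, GGGCGG was in 21 of 25 members against 44.6% of all 27305 RefSeq promoter windows. A CCAAT box (CCAAT) was in 6 of 25 against 35.7%, and TATAAA was in 1 (ACADVL) against 11.9%. The androgen receptor half-site AGAACA was in 2 windows, those of ETFB and PPARD, against 14.9% of all windows, and the full palindrome of that site was in none of the 25. The PPAR half-site AGGTCA was in 1 window, that of ACAD10, against 13.9% of all windows, and its direct repeat with a spacing of 1 base was in none. A match describes letters only, and the absence of these letters from a window of this length carries no information on binding elsewhere.

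The carnitine shuttle carries long-chain acyl groups across the inner mitochondrial membrane, and its members went in different directions: 2 were lower, 1 was higher and 1 did not pass the test. SLC25A20, the carrier that exchanges acylcarnitine for carnitine, ranged from 40.5 to 48.8 CPM with R1881 (median 44.6) and read 22.9, 20.7, 21.6, 20.6 and 19.996 CPM in the 5 enzalutamide libraries. Every enzalutamide library was below every R1881 library, and the decrease was 2.11-fold (log2 fold change -1.08, SE 0.0473, adjusted p = 2.88e-14). CPT1A, the malonyl-CoA-sensitive enzyme that makes acylcarnitine at the outer membrane, ranged from 209 to 226 CPM with R1881 (median 220.1) and read 166, 169, 164, 172 and 165 CPM with enzalutamide. It fell 1.31-fold without overlap (log2 fold change -0.39, SE 0.0287, adjusted p = 1.92e-10). CPT2, which returns the acyl group to coenzyme A inside the mitochondrion, read 86.8 to 97.3 CPM with R1881 (median 93.6) and 96.8, 96.6, 91.2, 94.0 and 93.5 CPM with enzalutamide. These ranges overlapped, and the log2 fold change was 0.02 with a 95% interval from -0.04 to 0.09 (adjusted p = 0.553). CRAT, which handles short-chain acyl groups, rose from 28.9 to 39.5 CPM (median 32.6) to 46.8, 56.1, 46.8, 45.0 and 49.0 CPM, a 1.46-fold increase without overlap (log2 fold change 0.54, SE 0.0660, adjusted p = 3.82e-07).

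Since CPT1A and CPT2 act at opposite ends of the shuttle, their ratio was compared within each library, where the scaling of the library cancels except for the added 0.5. The log2 ratio of CPT1A to CPT2 was 1.23 ± 0.0738 (SD, n = 10) with R1881 and 0.82 ± 0.0373 (n = 5) with enzalutamide. The difference of -0.41 gave p = 0.000333 in a two-sided exact permutation test over 3003 regroupings, the smallest p this design can give, and 0.000416 after adjustment over 5 such ratios. All 5 enzalutamide libraries lay below all 10 R1881 libraries.

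The acyl-CoA dehydrogenases open the cycle, each for its own chain length or branched substrate, and 4 of the 7 were lower, 2 higher and 1 not called. The largest change of the set was in ACAD8, isobutyryl-CoA dehydrogenase, which acts in the breakdown of valine rather than of straight chains. The gene lies on chromosome 11 at 134253548 to 134265855 on the plus strand (GRCh38, GENCODE v44), with 11 exons in its canonical transcript, and no other annotated gene shares its exons. ACAD8 ranged from 268 to 320.3 CPM with R1881 (median 289.8) and read 53.0, 51.2, 51.1, 49.2 and 46.9 CPM with enzalutamide. The groups were far apart, and the decrease was 5.72-fold (log2 fold change -2.52, SE 0.0394, adjusted p = 8.01e-22), a size reached by 0.739% of all genes tested.

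ACADM, the medium-chain enzyme, ranged from 162 to 196 CPM with R1881 (median 174) and read 104, 88.2, 108, 104 and 99.5 CPM with enzalutamide, a decrease of 1.76-fold (log2 fold change -0.82, SE 0.0493, adjusted p = 6.60e-12). ACADVL, the very long-chain enzyme of the inner membrane, ranged from 480.5 to 568 CPM (median 506) and read 408, 458, 425, 419.9 and 408 CPM with enzalutamide. Both dehydrogenases were lower without overlap, but ACADVL by only 1.21-fold (log2 fold change -0.27, SE 0.0429, adjusted p = 1.23e-05). The log2 ratio of ACADVL to ACADM was accordingly 1.53 ± 0.165 with R1881 (n = 10) and 2.07 ± 0.170 with enzalutamide (n = 5), a difference of 0.54 (two-sided exact permutation p = 0.000333, adjusted 0.000416). Enzalutamide replicate 2 stood highest in that ratio at 2.37, with the other 4 between 1.97 and 2.03. Without replicate 2 the difference was 0.47.

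ACADSB, which acts in isoleucine breakdown, rose from 113 to 148 CPM (median 127) to 169, 151, 164, 178 and 166 CPM, 1.28-fold without overlap (log2 fold change 0.35, SE 0.0581, adjusted p = 2.04e-05). ACAD10, a dehydrogenase with an additional kinase-like region, rose from 35.2 to 40.3 CPM (median 37.6) to 52.7, 58.3, 50.9, 50.4 and 51.6 CPM, 1.40-fold without overlap (log2 fold change 0.48, SE 0.0442, adjusted p = 5.49e-09). ACAD9, which also serves the assembly of respiratory complex I, was 63.9 ± 3.26 CPM with R1881 and 56.7 ± 2.54 with enzalutamide, lower by 1.13-fold with overlapping libraries (adjusted p = 0.00117), a call that was lost when library totals were set to 1000000 (log2 fold change -0.08). ACADS, the short-chain enzyme, was 20.6 ± 4.96 CPM and 20.7 ± 4.55. Its log2 fold change of 0.01 had a wide 95% interval, from -0.28 to 0.29 (adjusted p = 0.965), so the data are compatible with changes within these bounds.

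**Figure D2:**
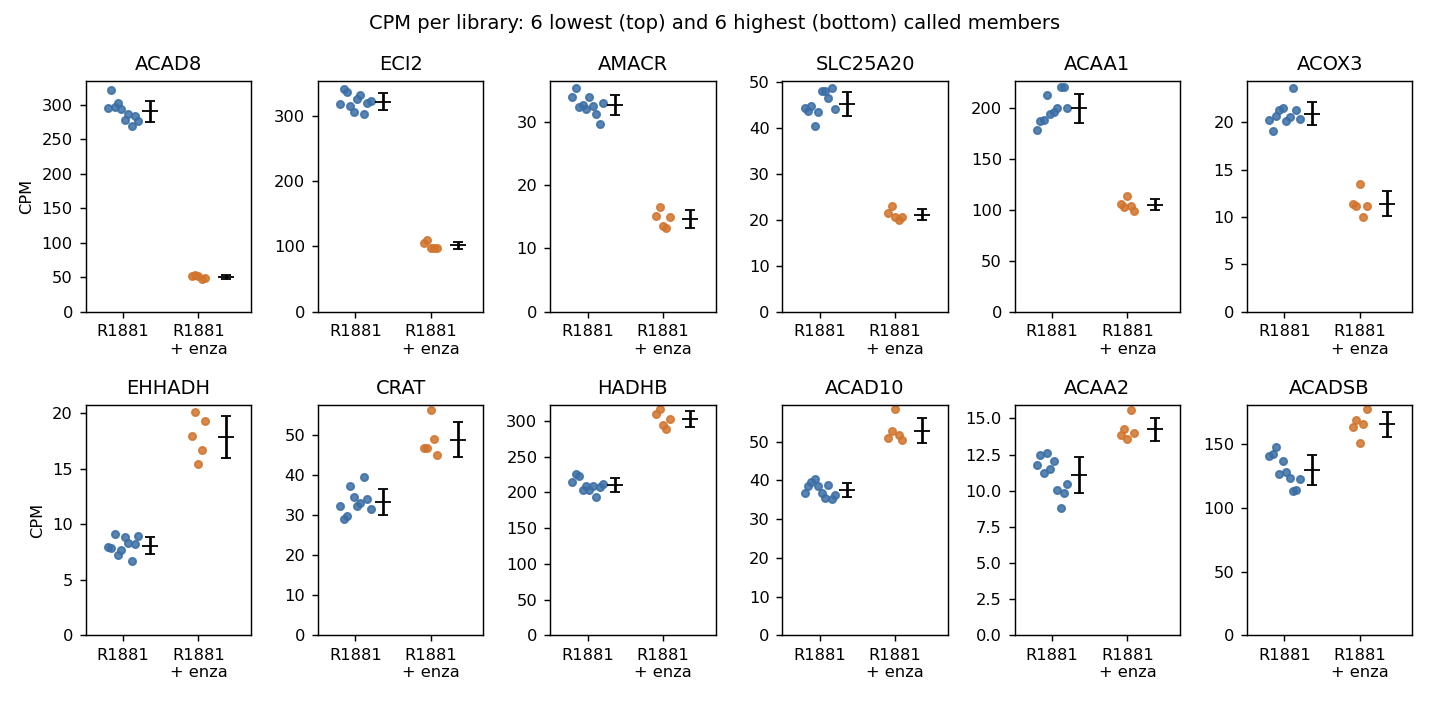
CPM in each library for the 6 called genes with the lowest (top row) and the 6 with the highest (bottom row) log2 fold change; each panel starts at 0, blue points are 10 R1881 libraries, orange points 5 R1881 + enzalutamide libraries, and black bars the mean and SD. In all 12 panels the points of the groups do not overlap, with the widest gap for ACAD8 at 268 to 320.3 against 46.9 to 53.0 CPM.

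The steps after the first oxidation had 3 genes higher, 1 lower and 1 not called. HADHA, which carries the long-chain hydratase and 3-hydroxyacyl-CoA dehydrogenase activities of the trifunctional protein, ranged from 264 to 301 CPM with R1881 (median 294) and read 362, 338, 337, 355 and 351 CPM with enzalutamide. HADHB, its thiolase subunit, ranged from 193 to 226 CPM (median 209) and read 317, 295, 309, 303 and 289 CPM. Both rose without overlap, HADHA by 1.21-fold (log2 fold change 0.27, SE 0.0358, adjusted p = 1.15e-06) and HADHB by 1.44-fold (log2 fold change 0.53, SE 0.0359, adjusted p = 5.18e-11). Although the start regions of the pair adjoin, as the sequence above shows, the increase was not equal. The log2 ratio of HADHA to HADHB fell from 0.46 ± 0.0576 (n = 10) to 0.21 ± 0.0577 (n = 5), a difference of -0.25 (two-sided exact permutation p = 0.000333, adjusted 0.000416), and no enzalutamide library reached the lowest R1881 library.

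ACAA2, the thiolase for medium and short chains, had low values but was higher in every enzalutamide library than in any R1881 library, going from 8.82 to 12.6 CPM (median 11.4) to 14.3, 13.6, 13.8, 14.01 and 15.6 CPM (1.28-fold, log2 fold change 0.36, SE 0.0757, adjusted p = 0.000361). HADH, the 3-hydroxyacyl-CoA dehydrogenase for short and medium chains, was 122 ± 3.24 CPM and 113 ± 3.99, lower by 1.08-fold with overlapping libraries (adjusted p = 0.00381). This call was lost when library totals were set to 1000000 (log2 fold change -0.018). ECHS1, the short-chain enoyl-CoA hydratase, was 271 ± 14.4 CPM and 258 ± 13.4, a log2 fold change of -0.07 with a 95% interval from -0.16 to 0.01 (adjusted p = 0.115). Without enzalutamide replicate 2, ECHS1 passed the threshold (log2 fold change -0.10, adjusted p = 0.0459).

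Double bonds in natural fatty acids stop the cycle until isomerases and reductases move or remove them, and among these 4 enzymes 3 were lower and 1 higher. ECI2, a delta3-delta2-enoyl-CoA isomerase found in peroxisomes and mitochondria, lies on chromosome 6 at 4115693 to 4135597 on the minus strand. It ranged from 302 to 340.7 CPM with R1881 (median 321) and read 109, 97.6, 105, 98.1 and 98.1 CPM with enzalutamide. The decrease of 3.15-fold was free of overlap and second in size within the set (log2 fold change -1.66, SE 0.0356, adjusted p = 1.22e-19). The pseudogene TEX56P covers 27.1% of the ECI2 exon bases on the opposite strand, and the sources used here do not give whether reads were counted by strand.

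ECI1, the mitochondrial isomerase, was 43.9 ± 11.9 CPM and 28.6 ± 6.73, lower by 1.52-fold with overlap between the groups (log2 fold change -0.60, SE 0.150, adjusted p = 0.00151). R1881 replicate 6 read 74.0 CPM, while the other 9 ranged from 33.1 to 53.8 CPM. Without that library the log2 fold change was -0.52 (adjusted p = 0.000262). DECR1, the mitochondrial 2,4-dienoyl-CoA reductase, was 59.6 ± 4.56 CPM and 68.9 ± 3.87, higher by 1.16-fold with overlap (adjusted p = 0.00146). DECR2, its peroxisomal counterpart, was 14.2 ± 2.65 CPM and 11.5 ± 1.86 (log2 fold change -0.29, SE 0.114, adjusted p = 0.0336). The DECR2 call was lost without R1881 replicate 1 (adjusted p = 0.0556) or 5 (0.0533), or without enzalutamide replicate 1 (0.136), 4 (0.0665) or 5 (0.0704), and 14.3% of its exon bases belong also to NME4 on the same strand.

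Of the 3 electron transfer genes, 2 were higher and 1 was not called, where 29.8% of all genes tested were higher and 62.5% were called. ETFA, the larger subunit of electron transfer flavoprotein, ranged from 266 to 294 CPM with R1881 (median 283) and read 327, 290.2, 319, 321 and 310.3 CPM with enzalutamide (1.11-fold, log2 fold change 0.15, SE 0.0334, adjusted p = 0.000538). Only enzalutamide replicate 2 fell within the range of the R1881 libraries. ETFB, the smaller subunit, ranged from 21.4 to 43.1 CPM (median 29.1) and read 25.6, 43.5, 37.5, 31.7 and 34.8 CPM with enzalutamide. The ETFB groups overlapped almost entirely (log2 fold change 0.22, 95% interval -0.04 to 0.48, adjusted p = 0.131), but the gene passed the threshold without R1881 replicate 6 (log2 fold change 0.28, adjusted p = 0.0181) or without enzalutamide replicate 1 (0.32, adjusted p = 0.0291). The log2 ratio of ETFA to ETFB was 3.25 ± 0.299 and 3.18 ± 0.341, a difference of -0.07 (two-sided exact permutation p = 0.705). ETFDH, which passes the electrons on to ubiquinone, rose from 51.1 ± 2.32 to 60.9 ± 4.04 CPM without overlap (1.19-fold, log2 fold change 0.25, SE 0.0443, adjusted p = 5.05e-05).

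**Figure D3:**
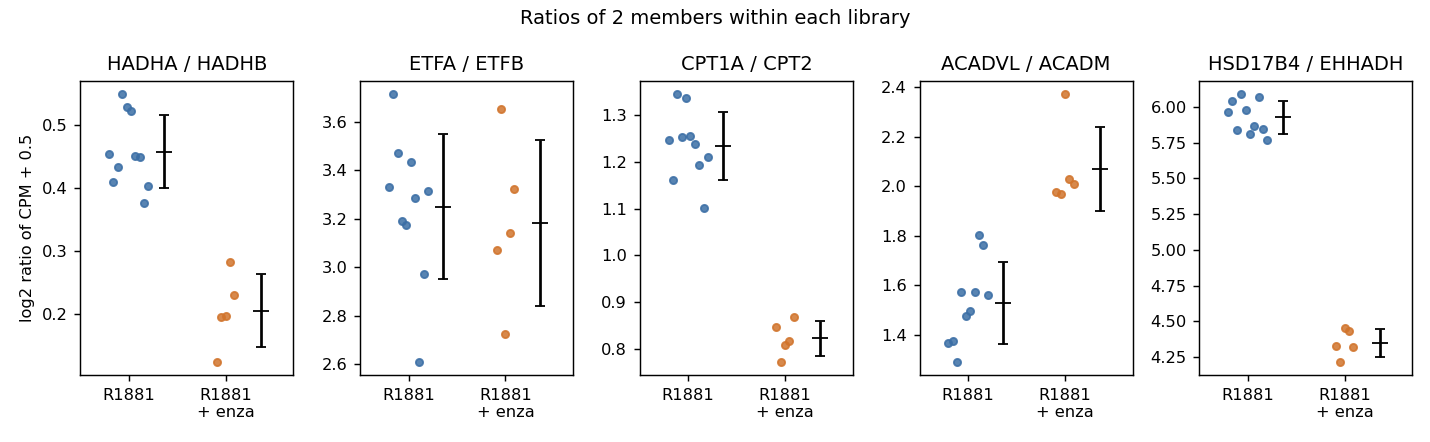
Log2 ratio of CPM + 0.5 between 2 genes within each library; blue points are 10 R1881 libraries, orange points 5 R1881 + enzalutamide libraries, black bars the mean and SD, and the axes do not start at 0. The groups are apart for 4 ratios and overlap for ETFA to ETFB, where the means are 3.25 and 3.18.

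Of the 6 peroxisomal enzymes, 4 were lower and 2 higher, where 32.7% of all genes tested were lower and 29.8% higher. AMACR, the racemase, ranged from 29.6 to 35.3 CPM with R1881 (median 32.6) and read 16.5, 13.5, 15.1, 14.9 and 13.2 CPM with enzalutamide (2.19-fold lower, log2 fold change -1.13, SE 0.0535, adjusted p = 1.03e-13). ACOX3, a branched-chain acyl-CoA oxidase, ranged from 19.1 to 23.7 CPM (median 20.6) and read 11.1, 13.5, 11.4, 11.1 and 9.96 CPM (1.80-fold lower, log2 fold change -0.85, SE 0.0613, adjusted p = 1.28e-10). Every enzalutamide library was below every R1881 library for both genes. The readthrough gene C1QTNF3-AMACR shares 61.4% of the AMACR exon bases on the same strand, so reads there could not be assigned to either alone.

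HSD17B4, the D-bifunctional protein that hydrates and oxidizes very long and branched chains, ranged from 484 to 553 CPM with R1881 (median 519.5) and read 382, 349, 369.8, 394 and 371 CPM with enzalutamide (1.40-fold lower, log2 fold change -0.48, SE 0.0341, adjusted p = 9.53e-11). ACAA1, the peroxisomal thiolase, ranged from 178 to 221 CPM (median 198) and read 103, 114, 106, 99.4 and 104 CPM (1.90-fold lower, log2 fold change -0.92, SE 0.0478, adjusted p = 4.89e-13). Thus an oxidase, a bifunctional enzyme and a thiolase of the peroxisomal cycle, together with the racemase ahead of them, were all lower without overlap. Of all genes tested, 20.1% were lower without overlap. The remaining peroxisomal members, EHHADH and SCP2, were higher. Among 17 other peroxisomal oxidation genes tested, 2 were lower and 8 higher. On the opposite strand DLEC1 covers 19.7% of the ACAA1 exon bases.

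EHHADH, the L-bifunctional protein, which performs the same middle steps on the opposite stereoisomer, went the other way. It ranged from 6.71 to 9.16 CPM with R1881 (median 8.11) and read 20.1, 15.4, 18.0, 19.3 and 16.7 CPM with enzalutamide. The increase was 2.14-fold, the largest of the set, with median reads of 160 and 426 per library (log2 fold change 1.10, SE 0.0761, adjusted p = 6.67e-11). The log2 ratio of HSD17B4 to EHHADH fell from 5.93 ± 0.115 (n = 10) to 4.35 ± 0.0962 (n = 5), a difference of -1.58 (two-sided exact permutation p = 0.000333, adjusted 0.000416). Both genes separated the treatments fully and in opposite directions, so their ratio had to separate them too. The p-value of this ratio therefore adds nothing to the calls of the single genes. SCP2, which encodes a sterol carrier and a thiolase for branched chains, rose from 169 ± 11.2 to 193 ± 7.60 CPM, 1.14-fold with overlap (adjusted p = 0.000831).

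Of the receptors, PPARA was lower and PPARD was not called. PPARA, at 22.8 ± 1.00 CPM with R1881 and 16.9 ± 0.850 with enzalutamide, fell 1.34-fold without overlap (log2 fold change -0.42, SE 0.0463, adjusted p = 8.41e-08). PPARD was 26.1 ± 3.204 and 25.5 ± 3.096 CPM, a log2 fold change of -0.03 with a 95% interval from -0.20 to 0.14 (adjusted p = 0.734).

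Levels were set between genes per kilobase (kb) of the canonical transcript. With R1881 the highest mean levels were 235 CPM per kb for ECI2, 235 for ACADVL, 212 for ECHS1, 198 for HSD17B4 and 133 for ACAD8. With enzalutamide ECI2 was at 74.3 CPM per kb and ranked 7, and ACAD8 was at 23.1 CPM per kb and ranked 18 of 31. HADHB moved from rank 8 (105 CPM per kb) to rank 3 (151 CPM per kb). The lowest levels with R1881 were those of EHHADH, 2.13 CPM per kb, and PPARA, 2.25 CPM per kb, and with enzalutamide PPARA was lowest at 1.67 CPM per kb. Even after its increase EHHADH, at 4.71 CPM per kb, was far below HSD17B4 at 142 CPM per kb. Neighbours in this order often lay within each other's SD, such as ECI2 and ACADVL with R1881 (SD of 12.4 and 32.4 CPM before division by length).

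**Figure D4:**
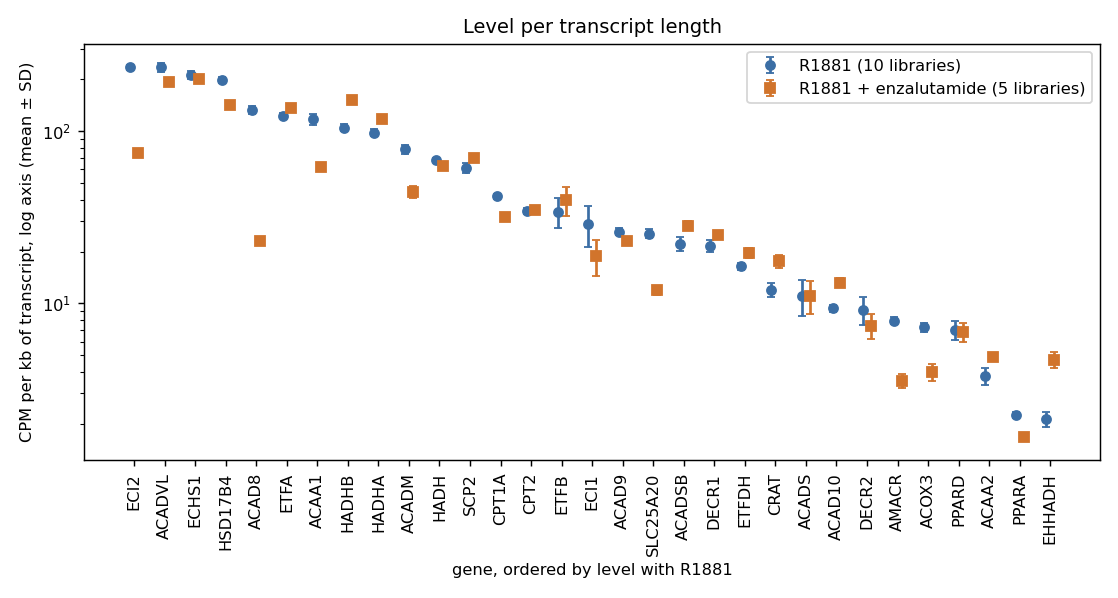
Mean CPM per kb of canonical transcript (log axis) for the 31 genes, ordered by level with R1881; circles are 10 R1881 libraries, squares 5 R1881 + enzalutamide libraries, and bars the SD. ECI2 and ACAD8 drop from 235 and 133 to 74.3 and 23.1 CPM per kb, while HADHB rises from 105 to 151.

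The genes around the set were examined through lists written from general knowledge, and each count below stands beside the 32.7% of all genes tested that were lower and the 29.8% that were higher (62.5% called). Of the genes for activation and uptake of fatty acids, 7 of 16 tested were lower and 6 higher (81.2% called). Among them ACSL3, a long-chain acyl-CoA synthetase of the endoplasmic reticulum and lipid droplets, fell from 1251 ± 55.4 to 193 ± 14.9 CPM (log2 fold change -2.69, adjusted p = 8.545e-22), and ACSS1, mitochondrial acetyl-CoA synthetase, rose from 0.436 ± 0.233 to 1.27 ± 0.233 CPM (0.94, adjusted p = 1.66e-05). For carnitine supply and the control by malonyl-CoA, 5 of 8 tested were lower and 3 higher (100% called). CROT, the carnitine octanoyltransferase of peroxisomes, fell from 67.1 ± 4.89 to 29.4 ± 2.39 CPM (-1.18, adjusted p = 9.24e-14), and CPT1C, the isoform typical of brain, rose from 2.30 ± 0.449 to 5.00 ± 0.414 CPM (0.99, adjusted p = 1.65e-07). The 3 listed genes that make or remove malonyl-CoA are named after their values were seen, and they did not share a direction. ACACA, the cytosolic carboxylase that makes it, fell from 1105 ± 45.0 to 519 ± 25.3 CPM (-1.09, adjusted p = 1.50e-16), and ACACB, the carboxylase at the mitochondrial surface, rose from 10.9 ± 0.851 to 14.4 ± 0.455 CPM (0.39, adjusted p = 9.34e-06). MLYCD, the decarboxylase that removes it, fell from 15.02 ± 1.21 to 12.4 ± 0.641 CPM (-0.27, adjusted p = 0.00064).

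Of 17 other peroxisomal oxidation genes tested, 2 were lower and 8 higher (58.8% called). HACL1, a lyase of phytanic acid alpha-oxidation, rose from 43.7 ± 1.79 to 70.1 ± 4.14 CPM (0.67, adjusted p = 8.16e-12). Peroxisome biogenesis genes had 6 of 21 lower and 5 higher (52.4% called, below the share of all genes). PEX10, a ubiquitin ligase of the import machinery, fell from 145 ± 15.8 to 53.7 ± 4.19 CPM (-1.42, adjusted p = 8.63e-14), and PEX6, an ATPase that recycles the import receptor, rose from 16.2 ± 2.77 to 23.1 ± 2.81 CPM (0.51, adjusted p = 0.000181). Other mitochondrial oxidation and electron transfer genes had 5 of 18 lower and 5 higher (55.6% called), led by the thioesterase ACOT9 (41.6 ± 3.17 to 26.5 ± 2.40 CPM, -0.64, adjusted p = 7.67e-09) and the dimethylglycine dehydrogenase DMGDH (0.489 ± 0.114 to 2.19 ± 0.327 CPM, 1.45, adjusted p = 1.95e-10).

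In the branched-chain amino acid and propionyl-CoA pathway, to which ACAD8 and ACADSB belong by function, 9 of 19 tested genes were lower and 4 higher (68.4% called). MCCC2, a subunit of the carboxylase of leucine breakdown, fell from 413 ± 20.6 to 205 ± 7.68 CPM (-1.01, adjusted p = 1.405e-15). HIBADH, which acts in valine breakdown after ACAD8, rose from 126 ± 6.97 to 262 ± 12.6 CPM (1.05, adjusted p = 3.66e-15), opposite in direction to ACAD8. Genes of ketone body and acetyl-CoA use had 3 of 8 lower and 4 higher (87.5% called), with the cholesterol pathway synthase HMGCS1 (261 ± 19.2 to 103 ± 4.91 CPM, -1.34, adjusted p = 1.29e-15) and the cytosolic dehydrogenase BDH2 (7.89 ± 0.770 to 12.5 ± 0.993 CPM, 0.64, adjusted p = 1.74e-07) at the ends. PPAR partners and targets had 3 of 11 lower and 3 higher (54.5% called), the highest being PPARG (5.15 ± 0.703 to 8.89 ± 0.839 CPM, 0.74, adjusted p = 2.84e-07).

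The libraries differed in a way that touched part of the set. A gap between the genes of the top and the bottom GC decile (1367 genes each) was taken relative to the mean of the libraries of the same treatment. It therefore does not compare the treatments. The gap was 0.64 log2 units in R1881 replicate 6, 0.35 in R1881 replicate 5 and 0.41 in enzalutamide replicate 2. It was -0.38 in R1881 replicate 10 and -0.29 in enzalutamide replicate 1. The genes with the widest spread over the 10 R1881 libraries were ECI1, ACADS, ETFB and DECR2, with an SD of 0.33, 0.30, 0.26 and 0.24 on the log2 scale, and transcript GC contents of 61.3%, 63.7%, 61.1% and 62.1%. For each of these 4 genes R1881 replicate 6 was the highest R1881 library. CRAT had a similar GC content of 62.1% but a smaller SD of 0.14. After removal of the GC trend ETFB passed the threshold (log2 fold change 0.30, adjusted p = 9.01e-05), ECI1 and DECR2 stayed lower (-0.53 and -0.21, adjusted p = 1.87e-06 and 0.00507), and ACADS was at 0.07 (adjusted p = 0.271). CPT2 then also passed (0.07, adjusted p = 0.0253). With the 3 libraries of highest gap left out, 15 members were lower and 12 higher, beside 5817 lower and 5253 higher among all genes.

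**Figure D5:**
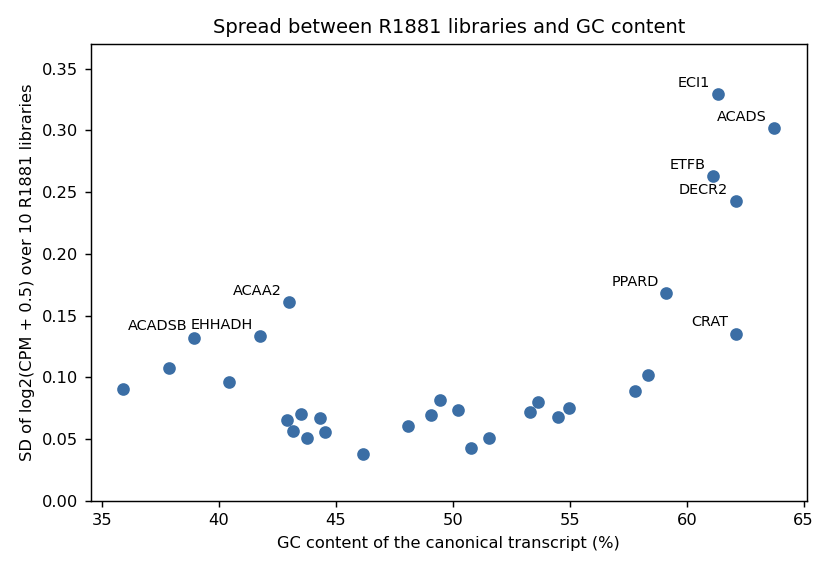
SD of log2(CPM + 0.5) over the 10 R1881 libraries against the GC content of the canonical transcript for the 31 genes, one point per gene, with genes above 0.13 named. The 4 points highest in SD (0.24 to 0.33) have a GC content above 61%, as does CRAT with an SD of 0.14.

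The numbers in the library descriptions fall into series of 51 to 55 and 71 to 75 for R1881 and 81 to 85 for enzalutamide, and the sources used here do not give what they stand for. No series held both treatments, so the series and the treatment cannot be told apart. Between the R1881 series, 1 member passed the threshold, where 3.17% of all genes did. It was ACADSB, lower in 71 to 75 (139 against 120.3 CPM, log2 fold change -0.21, adjusted p = 0.0302). At an unadjusted limma p under 0.05 there were 10 members. The 3.17% does not apply to that count, and the matching share of all genes is not given here. Differences between these series ran from -0.21 to 0.26 over the 31 genes, which does not measure how far either series stood from 81 to 85. Set against series 51 to 55 alone, 14 members were lower and 12 higher with enzalutamide, beside 5461 lower and 5011 higher among all genes. Against 71 to 75 alone the member counts were 15 and 11, beside 5235 and 4775 among all genes. In these 2 settings ACAD8 was at -2.57 and -2.46 and ACADSB at 0.25 and 0.46.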

How the data were processed

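Polyadenylated RNA of LNCaP cells was sequenced (stranded kit, single-end, per the labels). The authors aligned the reads to GRCh38 using STAR and took counts per gene using featureCounts of Subread, and demultiplexing with bcl2fastq 2.17 is named in the submitters' processing notes. The sources used here give no other version, annotation, strand setting or rule by which 17272 genes were kept. The deposited values are a normalized signal per gene and library that the methods call CPM, though columns summed to 985580 to 1078567. All values were whole multiples of 1 read within 0.01 reads, which gave each depth. Groups follow the labels (10 R1881, 5 enzalutamide libraries), whereas the methods text gives the numbers in reverse. The methods speak of biological replicates, and p-values measure the spread between these libraries. No 2 libraries of a treatment matched within sampling noise (55 pairs, chi-square per degree of freedom at least 1.63).

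Differences were tested with limma 3.58.1 in R 4.3.3 (lmFit and eBayes with trend, log2(value + 0.5), mean value of at least 0.5, no covariates, Benjamini-Hochberg adjustment over 17046 genes, threshold 0.05), after a check on simulated reads. Ratios were compared with two-sided exact permutation tests over libraries. Positions, lengths and GC content came from GENCODE v44 canonical transcripts (80.1% of genes matched), and promoters from RefSeq GRCh38.p14. Alternatives were the pseudocount, the filter, the scaling, edgeR 4.0.16 and DESeq2 1.42.0 on recovered reads, a 1.5-fold threshold, a replicate block, each R1881 series alone, removal of the GC trend (spline, 5 degrees of freedom) and each library left out. Leaving out 3 libraries by GC trend, and removing that trend between series, were added after the data were seen. The 31 members, the gene lists and the tests were chosen with earlier results of these data known. All members are named, with each enzalutamide value and the lowest, median and highest R1881 value for the 6 lowest and 6 highest called and for both genes of each ratio. From each list the lowest and highest called gene is named, except for a result that is not reported here, and from check lists up to 3 genes. List genes with no row were not analysed here, and a few genes stand in more than 1 list.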

Additional observations from a re-analysis of the deposited data

Results flagged for a closer look

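A single library stood apart in 3 of 72 groups of values examined (the 31 genes and 5 ratios in each treatment), where chance gives about 1 in 20. ECI1 read 74.0 CPM in R1881 replicate 6 and 33.1 to 53.8 CPM in the other R1881 libraries. ACOX3 read 23.7 CPM in the same library and 19.1 to 21.5 CPM in the others, and without it the log2 fold change was -0.83. The log2 ratio of ACADVL to ACADM was 2.37 in enzalutamide replicate 2 and 1.97 to 2.03 in the others. Both libraries were among the 3 with the largest positive gap between GC-rich and GC-poor genes (0.64 and 0.41 log2 units), and the part of this gap in the ratio was not tested.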

How the results depend on the processing

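Under 29 alternatives, 23 of the 31 genes kept their direction and their side of the threshold. Counts of members ranged from 12 to 16 lower and from 11 to 13 higher, apart from the requirement of a 1.5-fold change, which left 8 lower and 1 higher (3172 genes in all). With library totals set to 1000000, which shifted the median of all genes by 0.085 on the log2 scale, ACAD9, HADH and DECR2 lost their call (-0.08, -0.018 and -0.20), CPT2 and ETFB gained one (0.12 and 0.31), and ECHS1 and PPARD turned to 0.019 and 0.058. PPARD also turned to 0.0063 with edgeR and 0.047 with the GC trend removed, and ranged from -0.10 to 0.0085 with a library left out. ACADS ranged from -0.11 to 0.081 with a library left out and was -0.11 against R1881 libraries 71 to 75 alone, where CPT2 was -0.012. DECR2 lost its call with edgeR (-0.26) and against libraries 51 to 55 alone (-0.23). Against libraries 51 to 55 alone ETFB gained a call (0.35), as it did with the 3 libraries of highest GC gap left out (0.23). None of the genes that turned passed the threshold in the main test over all libraries. The ratio of ETFA to ETFB differed by 0.059 against libraries 71 to 75 alone, and from -0.19 to 0.047 with a library left out. The count of members called between the R1881 series was 6 with the GC trend removed and from 0 to 3 with a library left out. It was 0 without R1881 replicate 4, 5, 7, 8, 9 or 10 and 3 without replicate 3. The shares of all genes called between the series under these settings are not given here.

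The replicate numbers did not pair the libraries: libraries with the same number correlated at -0.07 to 0.07, and 1 of 5 correlated best with its own number. Pairing by library number was not examined. With a replicate block 10043 genes, 15 lower and 11 higher members were called. R1881 libraries whose replicate number has no enzalutamide partner do not enter the treatment estimate of that block. It rests on 5 libraries of each treatment. The 5 enzalutamide libraries limit the precision, as do the low read numbers of genes such as EHHADH and DECR2.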
